A study of Mus musculus with 11 samples.

Results

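RNA sequencing compared primary myoblasts without Bmal1 (genotype Bmal1-/-, 3 libraries) with wild-type primary myoblasts (2 libraries), both kept for 6 h at 21% oxygen, the normoxia arm of the study. The comparison took the 5 normoxia libraries of the 11 in the series and the 14729 of 22104 listed genes that reached a value of 10 in 2 or more libraries. Myoblasts are the dividing precursors of skeletal muscle fibres. They were isolated from the tibialis anterior, a muscle of the lower leg, of C57BL/6 mice about 8 weeks old, and were grown in Ham's F-10 with serum and basic fibroblast growth factor. The other 6 libraries, 3 of each genotype, came from cells kept for 6 h at 1% oxygen and served here as a second set of libraries in which to read the same genotype difference. They also entered the main fit, which estimated the spread of each gene over all 11 libraries. Which part of Bmal1 was deleted is not stated in the labels, nor whether the deletion was restricted to a tissue, nor whether the libraries of a group came from separate animals or cultures. The p-values therefore reflect variation among these libraries alone, and that variation may be technical. In bulk RNA, fewer cells of a type and less RNA per cell cannot be told apart.

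Bmal1, listed under the symbol Arntl, encodes a bHLH-PAS protein. With its partner CLOCK it binds DNA motifs called E-boxes and drives the circadian clock. Among its targets are the PER and CRY proteins, which repress BMAL1 and CLOCK in turn, and the nuclear receptors REV-ERBα (Nr1d1) and REV-ERBβ (Nr1d2), which repress genes that carry a ROR response element, Bmal1 itself included. In muscle, BMAL1 is known for roles in myogenic differentiation and metabolism, and cultured cells that have not been synchronised each keep their own phase, so a culture reports an average over phases.

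Transcripts of the targeted gene were lower in each knockout library than in either wild-type library. Arntl (ENSMUSG00000055116, chr7:113207465-113314126 on the forward strand of GRCm38) had normalized read counts of 264 and 267 in the wild-type libraries and 109, 117 and 98.8 in the knockout libraries. The log2 difference of knockout minus wild-type was -1.29 ± 0.10 (SE; adjusted p = 2.24e-06), by limma with Benjamini-Hochberg adjustment over all tested genes, or 2.44-fold lower. Reads on the gene thus remained in the knockout, and the values, which are summed over the whole gene, do not show which exons they came from. Recovered reads per library ranged from 18707697 to 21451760, with 18496 to 18800 genes detected, and mitochondrial genes took 22.1% to 24.4% of reads. On a principal component analysis of the 5 libraries the first component (41.3% of variance) separated the genotypes, and the second (21.5%) set knockout replicate 3 apart from the other knockout libraries. Defining markers of myoblasts were present in each library, with Myod1 at 9502 and 9124 in wild-type against 8715, 7983 and 8917 in the knockout and Pax7 at 1298 and 1446 in wild-type against 1139, 1123 and 1336 in the knockout.

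A gene is said below to have risen or fallen in the knockout where its adjusted p was under 0.05. By that rule 506 genes rose (3.44% of those tested) and 833 fell (5.66%), 9.09% together, and 475 of the risen and 812 of the fallen were protein-coding. Most differences were modest, with a median size of 0.39 on the log2 scale among risen and 0.56 among fallen genes, and 67 risen (0.455% of tested) and 193 fallen genes (1.31%) changed at least 2-fold. For comparison with the statements on overlap below, all 3 knockout values lay above both wild-type values for 18.8% of tested genes and below them for 19.6%. All 506 risen and all 833 fallen genes were of this kind. For a called gene, a lack of overlap therefore adds nothing to the call. The median SE of a log2 difference was 0.11. The counts depended on single libraries: 246 rose and 532 fell without wild-type replicate 1, 229 rose and 439 fell without wild-type replicate 2, and 312 rose without knockout replicate 2. A fit of the normoxia libraries alone called 331 risen and 592 fallen genes.

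**Figure D1:**
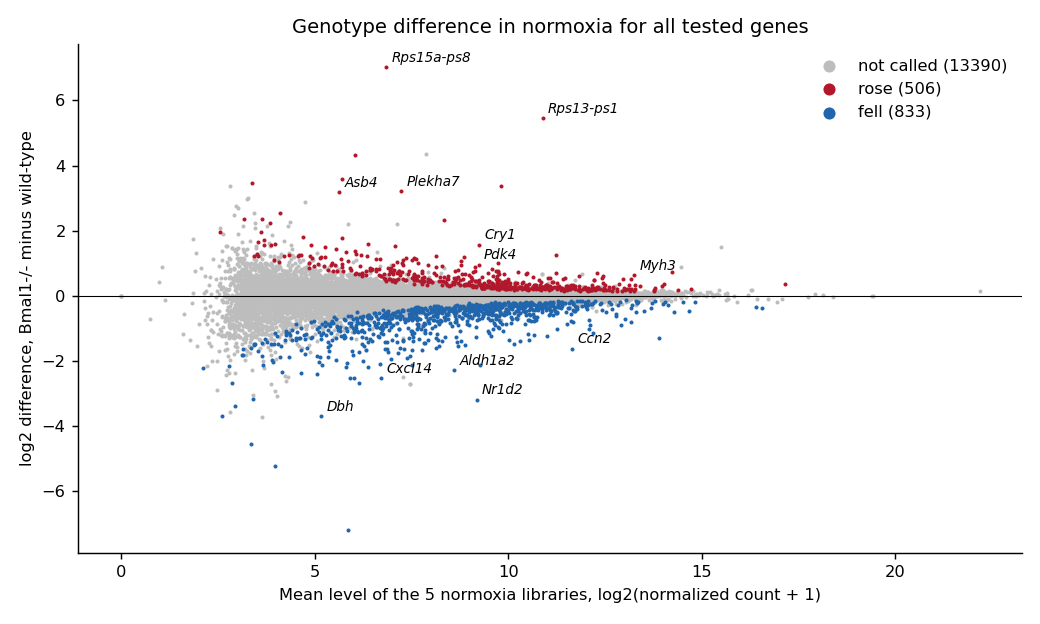
Log2 difference of knockout minus wild-type (vertical axis) against the mean level of the 5 normoxia libraries (horizontal axis, log2 of normalized count plus 1), with 1 point per tested gene. Red points mark the 506 risen genes and blue points the 833 fallen genes, and the widest differences include Nr1d2 among fallen genes and 2 pseudogenes of ribosomal protein genes among risen ones.

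The clock genes were among the most strongly changed, and they moved in both directions. Of 15 tested E-box outputs and repressors of the clock, 4 fell and 3 rose, with a median log2 difference of -0.16 against 0.00 over all tested genes. Both REV-ERB receptors fell. Nr1d2 had normalized counts of 1249.6 and 1243 in the wild-type libraries and 138, 131 and 139 in the knockout libraries, a log2 difference of -3.19 ± 0.09 (SE; adjusted p = 1.47e-10). Nr1d1 was read at 132 and 153 in the wild-type libraries and 24.8, 16.2 and 25 in the knockout libraries, a log2 difference of -2.66 ± 0.22 (SE; adjusted p = 4.31e-06). The knockout libraries of both genes lay far below the wild-type ones, 9.11-fold lower for Nr1d2 and 6.32-fold lower for Nr1d1, and the 3 knockout values of Nr1d2 differed little among themselves.

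Per3, a member of the PER family, and Bhlhe40, an E-box repressor also known as DEC1, fell as well. Per3 was read at 179.9 and 195 in the wild-type libraries and 53.4, 61.2 and 66.2 in the knockout libraries, a log2 difference of -1.63 ± 0.17 (SE; adjusted p = 3.24e-05). Bhlhe40 was read at 366 and 372 in the wild-type libraries and 117, 119.9 and 112 in the knockout libraries, a log2 difference of -1.66 ± 0.13 (SE; adjusted p = 2.34e-06). For both genes the 3 knockout values lay well below the lower wild-type value. The related repressor Bhlhe41 (DEC2) overlapped between the groups, at 404 and 451 in wild-type against 455, 357 and 457 in the knockout, and did not pass the test (-0.02, 95% interval -0.30 to 0.25).

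The CRY repressors and Per2 rose. Cry1 had normalized counts of 258 and 291 in the wild-type libraries and 822, 791 and 844 in the knockout libraries, a log2 difference of 1.58 ± 0.07 (SE; adjusted p = 2.06e-08). Cry2 was read at 96.4 and 116 in the wild-type libraries and 267, 242 and 216 in the knockout libraries, a log2 difference of 1.18 ± 0.15 (SE; adjusted p = 1.40e-04). The lowest knockout value of either CRY gene exceeded its highest wild-type value. Per2 was read at 103 and 113 in the wild-type libraries and 174, 159.9 and 215 in the knockout libraries, a log2 difference of 0.75 ± 0.16 (SE; adjusted p = 0.00816), and without wild-type replicate 1 its adjusted p was 0.0762.

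Per1 separated the knockout libraries from each other. Its normalized counts were 113 and 128 in the wild-type libraries and 33.5, 52.5 and 115 in the knockout libraries, so that knockout replicate 3 lay within the wild-type range while the other knockout libraries lay below it. The log2 difference of -1.02 did not pass the test (adjusted p = 0.0846), and without knockout replicate 3 it was -1.50 with an adjusted p of 5.53e-04.

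The PAR-domain factors, which bind D-box motifs and are textbook E-box targets, did not pass the test. Dbp was read at 69.6 and 57.1 in wild-type against 72, 38.7 and 43.4 in the knockout, overlapping between the groups, with a log2 difference of -0.34 (95% interval -0.85 to 0.16). Tef was read at 1155 and 1306 in wild-type against 989, 1113 and 1070.2 in the knockout, with a log2 difference of -0.22 (95% interval -0.44 to 0.00). Hlf stayed below the filter, at 3.21 and 2.28 in wild-type against 8.69, 5 and 7.6 in the knockout. The transcriptional repressor Ciart was read at 48.2 and 44.5 in wild-type against 60.8, 52.5 and 69.5 in the knockout, a log2 difference of 0.38 that missed the threshold (adjusted p = 0.187).

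Among 6 tested clock activators and ROR element outputs, 2 rose and none fell. Nfil3, a D-box repressor whose own gene is a REV-ERB target, had normalized counts of 267 and 257 in the wild-type libraries and 393, 399 and 422 in the knockout libraries, a log2 difference of 0.63 ± 0.09 (SE; adjusted p = 3.28e-04). Clock, the partner of BMAL1, rose by a small amount, from 2530.2 and 2612 to 2922, 3006 and 2838, a log2 difference of 0.18 ± 0.05 (SE; adjusted p = 0.0336). Leaving out either wild-type replicate, knockout replicate 1 or knockout replicate 2 ended that call, with adjusted p-values of 0.185, 0.0981, 0.0794 and 0.107. Npas2, a relative of Clock, was low in both groups at 3.21 and 2.28 in wild-type against 6.21, 13.7 and 7.6 in the knockout and did not pass (1.38, adjusted p = 0.265). Rora, an activator at ROR elements, overlapped between the groups at 122 and 164 in wild-type against 160.1, 127 and 120.5 in the knockout. None of 9 tested genes for the turnover of clock proteins passed in either direction.

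**Figure D2:**
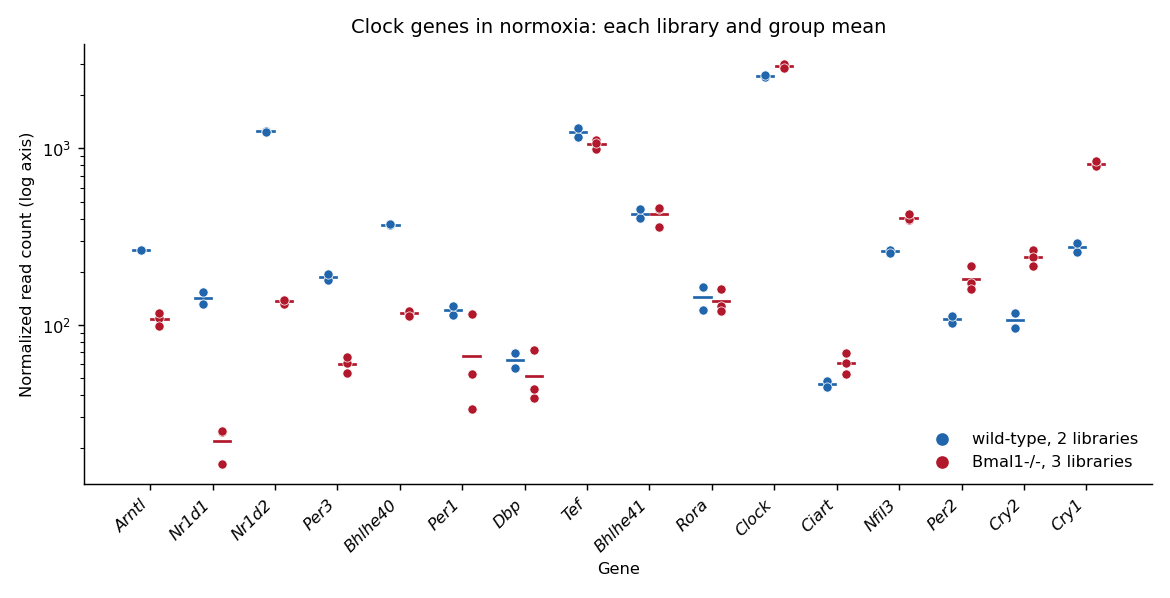
Normalized read counts of 16 clock genes (log axis), with 1 point per library, blue for the 2 wild-type and red for the 3 knockout libraries, and a bar at each group mean. Nr1d1, Nr1d2, Per3 and Bhlhe40 lie lower and Cry1 and Cry2 higher in all 3 knockout libraries, while the knockout points of Per1 spread from 33.5 to 115.

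The promoters of 4 clock genes with large differences, 3 fallen and 1 risen, are shown to set the letters of E-boxes and D-boxes beside the direction of change. Each line gives the 250 bases before the RefSeq transcription start, 5′ to 3′ on the gene's strand, in GRCm38.p6. Capitals mark the E-box CACGTG, the related motif CACGTT or its reverse complement AACGTG, and the D-box TTANGTAA. All 4 genes are on the reverse strand, and the windows are chr11:98775378-98775627 for Nr1d1, chr14:18239107-18239356 for Nr1d2, chr10:85185055-85185304 for Cry1 and chr4:151044666-151044915 for Per3.
Nr1d1: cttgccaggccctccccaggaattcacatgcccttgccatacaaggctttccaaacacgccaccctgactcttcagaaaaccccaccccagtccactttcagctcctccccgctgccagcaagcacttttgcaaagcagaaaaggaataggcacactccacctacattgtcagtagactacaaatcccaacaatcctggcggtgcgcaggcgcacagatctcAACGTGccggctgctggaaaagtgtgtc
Nr1d2: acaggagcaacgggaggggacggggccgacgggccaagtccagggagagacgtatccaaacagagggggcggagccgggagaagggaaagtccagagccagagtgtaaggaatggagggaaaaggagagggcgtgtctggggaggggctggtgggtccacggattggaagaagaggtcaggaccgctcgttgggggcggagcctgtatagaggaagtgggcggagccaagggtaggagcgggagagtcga
Cry1: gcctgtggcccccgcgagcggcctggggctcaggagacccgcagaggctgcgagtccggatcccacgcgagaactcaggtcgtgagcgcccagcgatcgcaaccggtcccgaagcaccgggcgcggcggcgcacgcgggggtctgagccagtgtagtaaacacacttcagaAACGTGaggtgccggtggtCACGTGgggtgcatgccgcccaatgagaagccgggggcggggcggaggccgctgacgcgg
Per3: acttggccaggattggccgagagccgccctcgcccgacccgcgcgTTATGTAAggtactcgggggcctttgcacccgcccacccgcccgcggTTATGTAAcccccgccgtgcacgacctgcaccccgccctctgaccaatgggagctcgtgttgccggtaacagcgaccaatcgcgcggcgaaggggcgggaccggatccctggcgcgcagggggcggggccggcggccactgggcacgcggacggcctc

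The risen Cry1 held CACGTG at -60 to -55 and AACGTG at -79 to -74 relative to its start. The fallen Nr1d1 held AACGTG at -28 to -23, and the fallen Per3 held D-boxes at -205 to -198 and -158 to -151. No searched motif was found in the Nr1d2 window, which says nothing of sites elsewhere in the gene. The windows of genes that did not pass held motifs too: Ciart had CACGTG at -116, -58 and -44, Per1 at -166 and Bhlhe41 at -153. Tef, which did not pass either, had CACGTG at -127 and -138 in separate windows, and Tspan4 had it at -51. The risen Cry2 held AACGTG at -166. Over windows of 300 bases, 250 before and 50 after the start, on both strands, CACGTG occurred in 13.4% of 380 risen genes with a promoter in the RefSeq table, 9.80% of 633 fallen genes, 11.9% of 10430 tested genes and 7.15% of all 32851 promoters in the table. CACGTT occurred in 4.74% of the risen, 5.37% of the fallen and 6.43% of the tested genes, and in 4.69% of all promoters. The ROR element, searched as AGGTCA directly after AANT or TNGG, was rare, in 0.53% of the risen, 0.32% of the fallen and 0.50% of the tested genes and 0.45% of all promoters. TTANGTAA occurred in 2.63% of the risen, 2.69% of the fallen and 1.79% of the tested genes, and in 2.32% of all promoters.

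Outside the clock, the risen genes with the largest differences included genes of muscle and of imprinted loci. Plekha7, which encodes an adherens junction protein, had normalized counts of 31.1 and 18.3 in the wild-type libraries and 228, 205 and 258 in the knockout libraries, a log2 difference of 3.21 ± 0.21 (SE; adjusted p = 5.56e-07). Asb4, an imprinted gene for a subunit of a ubiquitin ligase, was read at 11.8 and 4.57 in the wild-type libraries and 67, 80 and 79.2 in the knockout libraries, a log2 difference of 3.17 ± 0.30 (SE; adjusted p = 1.35e-05). The knockout values of both genes stood clear of the wild-type ones, which were near the low end of the tested range. Muscle genes in this set were Myo18b, an unconventional myosin of the sarcomere (1.60), Mybpc1, slow myosin-binding protein C (1.18), and Ankrd2, a stretch-responsive ankyrin repeat protein (1.22), with values that are log2 differences. Mybpc1 was read at 227 and 306 in wild-type against 578, 595 and 624 in the knockout. The phosphatase subunit gene Ppp1r27 (1.26), the receptor genes Avpr1a, for vasopressin (1.39), and Gpr149, an orphan receptor (1.45), and the osteoblast transcription factor Sp7 (1.21) rose too.

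The fallen genes with the largest differences encoded enzymes, secreted proteins, receptors and a transcriptional repressor. Dbh, the enzyme that converts dopamine to noradrenaline, had normalized counts of 94.2 and 63.9 in the wild-type libraries and 7.45, 2.5 and 6.51 in the knockout libraries, a log2 difference of -3.70 ± 0.67 (SE; adjusted p = 0.00336). Aldh1a2, which makes retinoic acid, was read at 730.3 and 746 in the wild-type libraries and 146, 142 and 164 in the knockout libraries, a log2 difference of -2.28 ± 0.09 (SE; adjusted p = 2.48e-09). Lrrc32, the docking receptor of latent TGF-beta, was read at 1113 and 1167 in the wild-type libraries and 243, 257 and 288 in the knockout libraries, a log2 difference of -2.12 ± 0.08 (SE; adjusted p = 2.48e-09). No value of these genes overlapped between the groups, which held for every called gene, and Aldh1a2 was 4.87-fold lower in the knockout. Log2 differences of -2.08 to -2.18 were measured for Cygb (cytoglobin), Efemp1 (a fibulin of the matrix), Hic1 (a transcriptional repressor), Gpr39 (a zinc-sensing receptor) and Medag.

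Genes of muscle differentiation rose in a larger share than all tested genes, 53.3% against 3.44%. Of 30 tested genes of differentiation and fusion, 16 rose and none fell, with a median log2 difference of 0.42 against 0.00 over all tested genes. Myh3, embryonic myosin heavy chain, had normalized counts of 6626 and 8005 in the wild-type libraries and 11603, 10348 and 12189.5 in the knockout libraries, a log2 difference of 0.64 ± 0.09 (SE; adjusted p = 4.05e-04). Tnnt1, slow troponin T, was read at 2191 and 2210.2 in the wild-type libraries and 3286, 3053 and 3357 in the knockout libraries, a log2 difference of 0.55 ± 0.05 (SE; adjusted p = 1.06e-05). Tnnt3 (0.54), Tnnc1 (0.55), the transcription factor Mef2c (0.52) and the acetylcholine receptor subunit Chrna1 (0.19) rose as well, as log2 differences. The count was 6 without wild-type replicate 1, 9 without knockout replicate 1 and 7 without the variance trend of the model. Skeletal actin (Acta1, 0.51) and perinatal myosin (Myh8, 0.75) were among the calls that ended without wild-type replicate 1, with adjusted p-values of 0.111 and 0.104, and both also ended without the variance trend (0.0686 and 0.0502). Myog, which starts differentiation, was read at 5687 and 6509.7 in wild-type against 7639, 6901 and 7808 in the knockout, a log2 difference of 0.29 with an adjusted p of 0.0794, and it passed in a fit of the normoxia libraries alone (0.0408) and with DESeq2 (0.0326).

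Among 19 tested satellite cell and myoblast genes 1 rose (5.26%) and 2 fell (10.5%), against 3.44% and 5.66% of all tested genes. The riser was Myf5, a muscle-determining transcription factor, at 1301 and 1149 in the wild-type libraries and 1819, 1999 and 1701 in the knockout libraries, a log2 difference of 0.59 ± 0.08 (SE; adjusted p = 3.06e-04). Pax7 (-0.20, 95% interval -0.41 to 0.01) and Myod1 (-0.13, 95% interval -0.26 to 0.00), the factors that mark satellite cells and myoblasts, did not pass. The fallers were Spry1, an inhibitor of receptor tyrosine kinase signalling (-0.67), and the Notch target Hey1 (-0.54). Without wild-type replicate 2 both calls ended, with adjusted p-values of 0.0863 and 0.175, and the Hey1 call also ended without wild-type replicate 1 (0.137), knockout replicate 1 (0.11) or knockout replicate 2 (0.107). Hey1 missed the threshold as well in a fit of the normoxia libraries alone (0.0731), with edgeR (0.0566) and with DESeq2 (0.0888).

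Differences of replication and mitosis genes were small in size. Of 22 tested DNA replication genes 4 rose (18.2%), and of 22 mitosis genes 5 rose (22.7%), against 3.44% of all tested genes. None fell, and the log2 differences of the risers were 0.18 to 0.31. Top2a, the topoisomerase of dividing cells, was read at 12836 and 12540.0 in wild-type against 15229.7, 15325 and 14700.1 in the knockout, a log2 difference of 0.25 ± 0.05 (SE; adjusted p = 0.00336). Without wild-type replicate 2 no replication gene and 1 mitosis gene rose. The counts were 2 and 2 without wild-type replicate 1, 1 and 2 without knockout replicate 1, and 2 and 2 without knockout replicate 2. In the list of D cyclins and cyclin-dependent kinase inhibitors 3 of 15 fell and none rose. Ccnd2, cyclin D2, was read at 2901 and 2996 in the wild-type libraries and 2032, 2001 and 2221 in the knockout libraries, a log2 difference of -0.50 ± 0.05 (SE; adjusted p = 4.28e-05). Cdkn2a, the locus of p16 and ARF, fell by less (-0.41).

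Growth factor ligands of the FGF and HGF families moved in both directions in the knockout. In the FGF and HGF pathway 9 of 22 tested genes fell and 2 rose. Without wild-type replicate 2 the count of fallers was 4. Hgf, the ligand of MET that activates satellite cells, had normalized counts of 123 and 112 in the wild-type libraries and 17.4, 17.5 and 25 in the knockout libraries, a log2 difference of -2.52 ± 0.21 (SE; adjusted p = 4.31e-06). Fgf2, which is basic fibroblast growth factor and also a component of the medium, was read at 106 and 103 in the wild-type libraries and 42.2, 25 and 30.4 in the knockout libraries, a log2 difference of -1.68 ± 0.21 (SE; adjusted p = 1.76e-04). Fgf7 was read at 209.9 and 195 in wild-type against 84.4, 117 and 67.3 in the knockout, a log2 difference of -1.20 ± 0.22 (SE; adjusted p = 0.00307). The highest knockout value of each of these 3 ligands was below its lowest wild-type value. Both risers were ligands as well. Fgf21, an endocrine FGF, was read at 84.6 and 98.2 in wild-type against 211, 182 and 196 in the knockout, a log2 difference of 1.10 ± 0.22 (SE; adjusted p = 0.00561), a call that ended without wild-type replicate 1 (adjusted p = 0.0619). Fgf9 was read at 9.64 and 13.7 in wild-type against 22.3, 22.5 and 47.8 in the knockout, a log2 difference of 1.26 ± 0.35 (SE; adjusted p = 0.0367). Its call ended without wild-type replicate 1 (adjusted p = 0.215), wild-type replicate 2 (0.0808) or knockout replicate 3 (0.0944), in a fit of the normoxia libraries alone (0.107) and with DESeq2 (0.0762). Dusp6, a phosphatase that dampens ERK downstream of these ligands, fell by less (-0.38).

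In the TGF-beta and BMP pathway 9 of 40 tested genes fell and 2 rose, with a median log2 difference of -0.08. Inhba, the activin A subunit, was read at 858 and 699.8 in the wild-type libraries and 267, 277 and 270.3 in the knockout libraries, a log2 difference of -1.51 ± 0.10 (SE; adjusted p = 4.61e-07). The TGF-beta target Tgfbi was read at 304 and 336 in the wild-type libraries and 115, 144 and 126 in the knockout libraries, a log2 difference of -1.31 ± 0.11 (SE; adjusted p = 3.45e-06). For both genes the knockout values lay below the wild-type ones. Ltbp2, a latent TGF-beta binding protein family member, also fell (-1.27). Mstn, myostatin, an inhibitor of muscle growth, was one of the 2 that rose, at 61 and 58.2 in the wild-type libraries and 148, 129 and 117 in the knockout libraries, a log2 difference of 1.12 ± 0.18 (SE; adjusted p = 0.00151). The other riser was Ltbp1 (0.24). Without wild-type replicate 2 the count of fallers was 6.

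Of 17 tested genes of the insulin-like growth factor axis 3 rose and 5 fell. The ligand Igf2, expressed by differentiating myoblasts, rose by 0.55 on the log2 scale, from 4009 and 4627 to 6498, 5859 and 6611, and its antisense gene Igf2os overlaps it, so that reads of the 2 may not have been told apart. The other ligand of the axis, Igf1, fell, from 131 and 116 to 64.5, 57.5 and 91.2, a log2 difference of -0.81 ± 0.19 (SE; adjusted p = 0.0163). That call ended without wild-type replicate 1 (adjusted p = 0.122), wild-type replicate 2 (0.0661), knockout replicate 1 (0.0525) or knockout replicate 2 (0.0583) and in a fit of the normoxia libraries alone (0.052). Binding proteins that fell were Igfbp6 (-1.05), Igfbp5 (-0.75), Igfbp7 (-0.74) and, by less, Igfbp3 (-0.23, adjusted p = 0.0303), as log2 differences. The Igfbp3 call ended without wild-type replicate 1 (adjusted p = 0.113), wild-type replicate 2 (0.158), knockout replicate 2 (0.0896) or knockout replicate 3 (0.0725). Igfbp5, an abundant binding protein of muscle cells, was read at 856 and 1159 in the wild-type libraries and 588, 538 and 650.2 in the knockout libraries. The knockout libraries lay below both wild-type libraries for this gene, and the count of fallers was 3 without wild-type replicate 2 and 3 without knockout replicate 2.

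Some Wnt and Notch genes fell and none rose in the main fit. Of 30 tested Wnt pathway genes 6 fell (20%, against 5.66% of all tested genes), and 4 fell with DESeq2. Dkk2, a secreted modulator of the Wnt co-receptor, was read at 236 and 251 in the wild-type libraries and 89.4, 98.7 and 91.2 in the knockout libraries, a log2 difference of -1.38 ± 0.12 (SE; adjusted p = 4.17e-06). The ligand Wnt5a fell by less (-0.51), and 3 of 30 fell without wild-type replicate 2. Of 16 tested Notch genes 3 fell (18.8%). With DESeq2 2 Notch genes fell and 1 rose, and 1 also rose without wild-type replicate 2. The ligand Jag1 was read at 524 and 628 in the wild-type libraries and 307, 289.8 and 333 in the knockout libraries, a log2 difference of -0.89 ± 0.11 (SE; adjusted p = 1.53e-04), and the other 2 fallers, the targets Hes1 (-0.23) and Hey1, lost their calls without wild-type replicate 1 (adjusted p = 0.286 and 0.137), wild-type replicate 2 (0.0579 and 0.175), knockout replicate 1 (0.132 and 0.11) or knockout replicate 2 (0.106 and 0.107).

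The retinoic acid pathway had 5 fallers and no riser among 15 tested genes, with a median log2 difference of -0.52. They included both enzymes of retinoic acid synthesis that were named, Aldh1a2, given above, and Aldh1a3, which was read at 455 and 546 in the wild-type libraries and 222, 195 and 213 in the knockout libraries, a log2 difference of -1.25 ± 0.11 (SE; adjusted p = 4.89e-06). Dhrs3, a reductase that retinoic acid induces, was read at 183 and 210.1 in wild-type against 64.5, 66.2 and 56.4 in the knockout, a log2 difference of -1.64 ± 0.18 (SE; adjusted p = 5.31e-05). Without wild-type replicate 2 the count was 3, and the receptor gene Rarb (-0.85) then had an adjusted p of 0.244. Rarb also missed the threshold without wild-type replicate 1 (0.126), knockout replicate 2 (0.0907) or knockout replicate 3 (0.111) and with edgeR (0.0525) and DESeq2 (0.111).

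Genes of the extracellular matrix fell in the largest share of any list of matrix or signalling genes. Of 29 tested matrix genes outside the collagens 18 fell and none rose, with a median log2 difference of -0.46, and 16 to 18 fell when each library was left out in turn. Ccn2, connective tissue growth factor, had normalized counts of 5748 and 5095 in the wild-type libraries and 1673, 1906 and 1706 in the knockout libraries, a log2 difference of -1.62 ± 0.08 (SE; adjusted p = 4.09e-08). Loxl3, a lysyl oxidase that cross-links collagen, was read at 6191 and 6337 in the wild-type libraries and 3099, 3092 and 3072 in the knockout libraries, a log2 difference of -1.02 ± 0.05 (SE; adjusted p = 1.41e-08). Its relative Loxl2 was read at 1803 and 1923 in wild-type against 644, 662 and 682 in the knockout, a log2 difference of -1.49 ± 0.09 (SE; adjusted p = 1.25e-07). The wild-type values and the knockout values of these genes each lay close together, with a wide gap between the groups. Further fallers were the laminin chain Lama4 (-1.71), fibulin 2 (Fbln2, -1.13), the proteoglycan biglycan (Bgn, -0.90), fibronectin (Fn1, -0.79), nidogen 1 (Nid1, -0.78) and fibrillin 1 (Fbn1, -0.74), as log2 differences.

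Of 23 tested collagen genes 7 fell and 3 rose. Col15a1, a basement membrane-associated collagen, was read at 2248 and 2391 in the wild-type libraries and 899, 869.5 and 981 in the knockout libraries, a log2 difference of -1.34 ± 0.10 (SE; adjusted p = 2.20e-06). Both chains of collagen I fell, with log2 differences of -0.88 for Col1a1 and -0.91 for Col1a2, and Col1a2 was read at 5748 and 6649 in wild-type against 3171, 3161 and 3579.8 in the knockout. Collagen VI chains moved in opposite directions: Col6a3 fell (-0.81), while Col6a1 (0.75) and Col6a2 (0.88) rose, and these 2 calls ended without wild-type replicate 1 (adjusted p = 0.152 and 0.0787). Col4a1, of basement membranes, was the remaining riser (0.33).

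Integrins, the receptors for matrix, fell in 7 of 18 tested genes and rose in 1. Itgb3, the beta 3 subunit, was read at 1350.2 and 1355 in the wild-type libraries and 617, 608 and 679 in the knockout libraries, a log2 difference of -1.09 ± 0.07 (SE; adjusted p = 2.72e-07). The fibronectin and vitronectin receptor subunits Itga5 (-0.74), Itgav (-0.40) and Itgb5 (-0.57) and the collagen receptor subunit Itga1 (-1.12) fell. Itga4 rose (1.16), a call that ended without wild-type replicate 1 (adjusted p = 0.0567). Among 25 tested matrix proteases and inhibitors 8 fell and 4 rose, and 2 rose without wild-type replicate 1. Timp3, a metalloprotease inhibitor, was read at 648 and 719 in the wild-type libraries and 257, 197 and 256 in the knockout libraries, a log2 difference of -1.53 ± 0.11 (SE; adjusted p = 9.04e-07). The membrane metalloprotease Mmp14 fell (-0.64), whereas both plasminogen activators, Plau (0.49) and Plat (0.66), rose.

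Markers of connective tissue cells, which make much of the matrix of muscle, fell with these genes. Of 12 tested markers 9 fell and none rose, 7 or 8 when any 1 library was left out, with a median log2 difference of -0.74. The count of fallers was 6 with DESeq2 and 6 in a fit of the normoxia libraries alone. It was 9 with edgeR and 10 without the variance trend. The summed level of the list was 4069 and 3948 in the wild-type and 2329.6, 2041 and 2330.4 in the knockout libraries. Pdgfra, which defines fibro-adipogenic progenitors, was read at 700.3 and 685 in the wild-type libraries and 269, 251 and 277 in the knockout libraries, a log2 difference of -1.38 ± 0.08 (SE; adjusted p = 1.25e-07). Other defining markers were near the detection limit: Dpt, Dpp4 and Pi16 were below the filter in all 5 libraries, at 0 to 3.21. Of 13 tested pericyte and smooth muscle markers 6 fell and none rose, and their summed level was 49619 and 48834 in wild-type against 41380.1, 41298 and 41838 in the knockout. Pdgfrb, for example, was read at 1826 and 2161 in wild-type against 745, 682 and 844 in the knockout, a log2 difference of -1.40 ± 0.09 (SE; adjusted p = 3.29e-07), and Cspg4, NG2, fell by a like amount (-1.41). The satellite cell and myoblast list summed to 51753 and 52328 in wild-type and 51895, 51389 and 54713 in the knockout. The lists of endothelial, leukocyte, Schwann cell and adipocyte markers had few tested members. Of these, 1 of 8 endothelial markers fell (12.5%) and 0 of 5 leukocyte markers changed. Among 6 Schwann cell markers 1 rose and 1 fell (16.7% each), and 2 of 3 adipocyte markers fell (66.7%). Over all tested genes 3.44% rose and 5.66% fell. In the same order, the summed levels of these lists were 160 to 207, 160 to 267, 2250.1 to 3069.9 and 443 to 529. Without wild-type replicate 1 the endothelial faller, the Schwann cell riser and both adipocyte fallers lost their calls, and other single libraries ended some of them too. Des, in the pericyte list, is also in the myoblast list, and Cxcl14 is also in the cytokine list. The part of other cell types in the fall of matrix, chemokine and growth factor genes was not tested.

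**Figure D3:**
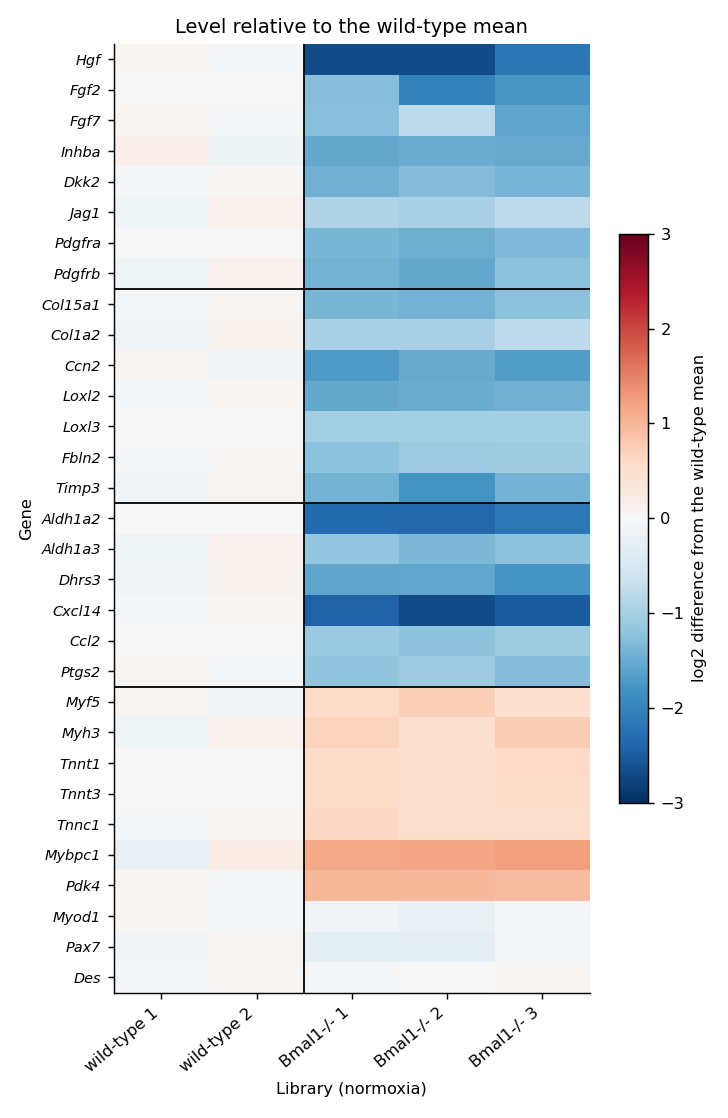
Level of 31 genes in each normoxia library as the log2 difference from the wild-type mean (colour scale, blue lower and red higher), with horizontal lines between ligands and receptors, matrix genes, retinoid and chemokine genes, and muscle genes. The 3 knockout columns are blue for the first 3 sets, from Hgf to Ptgs2, and red from Myf5 to Pdk4, while Myod1, Pax7 and Des stay near 0.

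Cytokine, chemokine and prostaglandin genes fell without a riser, 10 of 21 tested, with a median log2 difference of -0.63. Cxcl14, a chemokine that is also a connective tissue marker, had normalized counts of 197 and 213 in the wild-type libraries and 37.2, 31.2 and 35.8 in the knockout libraries, a log2 difference of -2.53 ± 0.15 (SE; adjusted p = 1.28e-07). The monocyte chemokine Ccl2 was read at 335 and 340.2 in the wild-type libraries and 155, 145 and 162 in the knockout libraries, a log2 difference of -1.13 ± 0.11 (SE; adjusted p = 1.94e-05). Ptgs2, the inducible cyclooxygenase, was read at 2584 and 2346 in the wild-type libraries and 1082, 1157 and 1006 in the knockout libraries, a log2 difference of -1.19 ± 0.10 (SE; adjusted p = 3.13e-06). No knockout value of these genes reached a wild-type value. The cytokine gene Il11 (-1.28) and the membrane-bound chemokine gene Cx3cl1 (-0.82) fell too. None of 16 tested interferon response genes passed, though their median was -0.31.

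Of 25 tested immediate early genes 8 fell and none rose, and 3 fell without wild-type replicate 1. Egr2 was read at 243 and 244 in the wild-type libraries and 90.6, 86.2 and 107 in the knockout libraries, a log2 difference of -1.36 ± 0.11 (SE; adjusted p = 3.18e-06). Junb, a component of the AP-1 factor, fell by less (-0.61), as did Ier3 (-0.56). The neurofilament genes Nefl (-1.96) and Nefm (-1.97) were the 2 fallers among 13 tested keratins and intermediate filaments. Nefl was read at 85.7 and 78.8 in wild-type against 17.4, 30 and 16.3 in the knockout and Nefm at 25.7 and 26.3 in wild-type against 4.96, 6.25 and 6.51 in the knockout.

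Imprinted genes, expressed from 1 parental allele, gave 9 risers and 4 fallers among 30 tested, with a median log2 difference of 0.10. Besides Asb4, Nnat (neuronatin) was read at 52.5 and 73.1 in the wild-type libraries and 171, 169.9 and 203 in the knockout libraries, a log2 difference of 1.53 ± 0.16 (SE; adjusted p = 3.17e-05). Peg10, which lies in the imprinted cluster of Asb4, rose by 0.68, and Ppp1r9a, from the same cluster, by 0.76 on the log2 scale. H19 (0.36) and Igf2, neighbours in another cluster, rose together, and the adaptor gene Grb10 rose by 0.36. The transcription factor gene Plagl1 fell (-0.50). Without wild-type replicate 2, and likewise without knockout replicate 2, 2 of the 30 fell.

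Lists of metabolic and stress genes differed in their share of calls, against 3.44% risen and 5.66% fallen over all tested genes. The share was 17.6% risen for NAD genes and 12.5% fallen for both hypoxia-inducible factor targets and NRF2 genes. Glycolysis, at 4.76% in each direction, and autophagy, at 4.35% fallen, lay near the shares over all genes. Of 21 tested glycolytic genes 1 rose and 1 fell, the faller being hexokinase 2 (Hk2, -0.46), and of 32 hypoxia-inducible factor targets outside glycolysis 2 rose and 4 fell. The respiratory chain had 1 riser of 33 nuclear-encoded genes and 1 of 13 mitochondrially encoded transcripts. In the list of the TCA cycle and pyruvate dehydrogenase 2 of 24 rose. Pdk4, the kinase that turns pyruvate dehydrogenase off, was read at 400.5 and 366 in the wild-type libraries and 763, 751 and 725 in the knockout libraries, a log2 difference of 0.96 ± 0.07 (SE; adjusted p = 1.60e-06). Pdk4 was 1.95-fold higher in the knockout with no overlap, and the other riser of its list, Idh2, differed by 0.22 on the log2 scale. The single risers of glycolysis and of the nuclear-encoded respiratory chain, and both risers among hypoxia-inducible factor targets, lost their calls when wild-type replicate 1 or 2 or knockout replicate 1 or 2 was left out. The mitochondrially encoded riser lost its call without wild-type replicate 1 or 2 or knockout replicate 1.

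Nampt, a known clock output that limits the rate of NAD salvage, was read at 930.5 and 819.7 in wild-type against 1085, 1072 and 961 in the knockout, a log2 difference of 0.25 that did not pass (adjusted p = 0.136). Of 17 tested NAD genes 3 rose, and without wild-type replicate 1, wild-type replicate 2 or knockout replicate 2 none did and without knockout replicate 1 or 3 a single gene did. Counts elsewhere were 2 risers of 22 p53 targets, 1 riser of 23 genes of the integrated stress response, 1 faller of 18 endoplasmic reticulum chaperone genes, 3 fallers of 24 NRF2 and antioxidant genes, 2 risers and 1 faller of 23 cholesterol synthesis genes, and 1 faller of 23 autophagy genes. Leaving out wild-type replicate 2 left no p53 riser, leaving out wild-type replicate 1 or knockout replicate 1 left 1, and leaving out wild-type replicate 1 left 1 NRF2 faller and no cholesterol or autophagy call. Both cholesterol risers also ended without knockout replicate 1 or 2, and 1 of them without wild-type replicate 2. The stress response call and the chaperone call each ended without any 1 of the 5 libraries. None of 23 tested Hox genes passed.

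**Figure D4:**
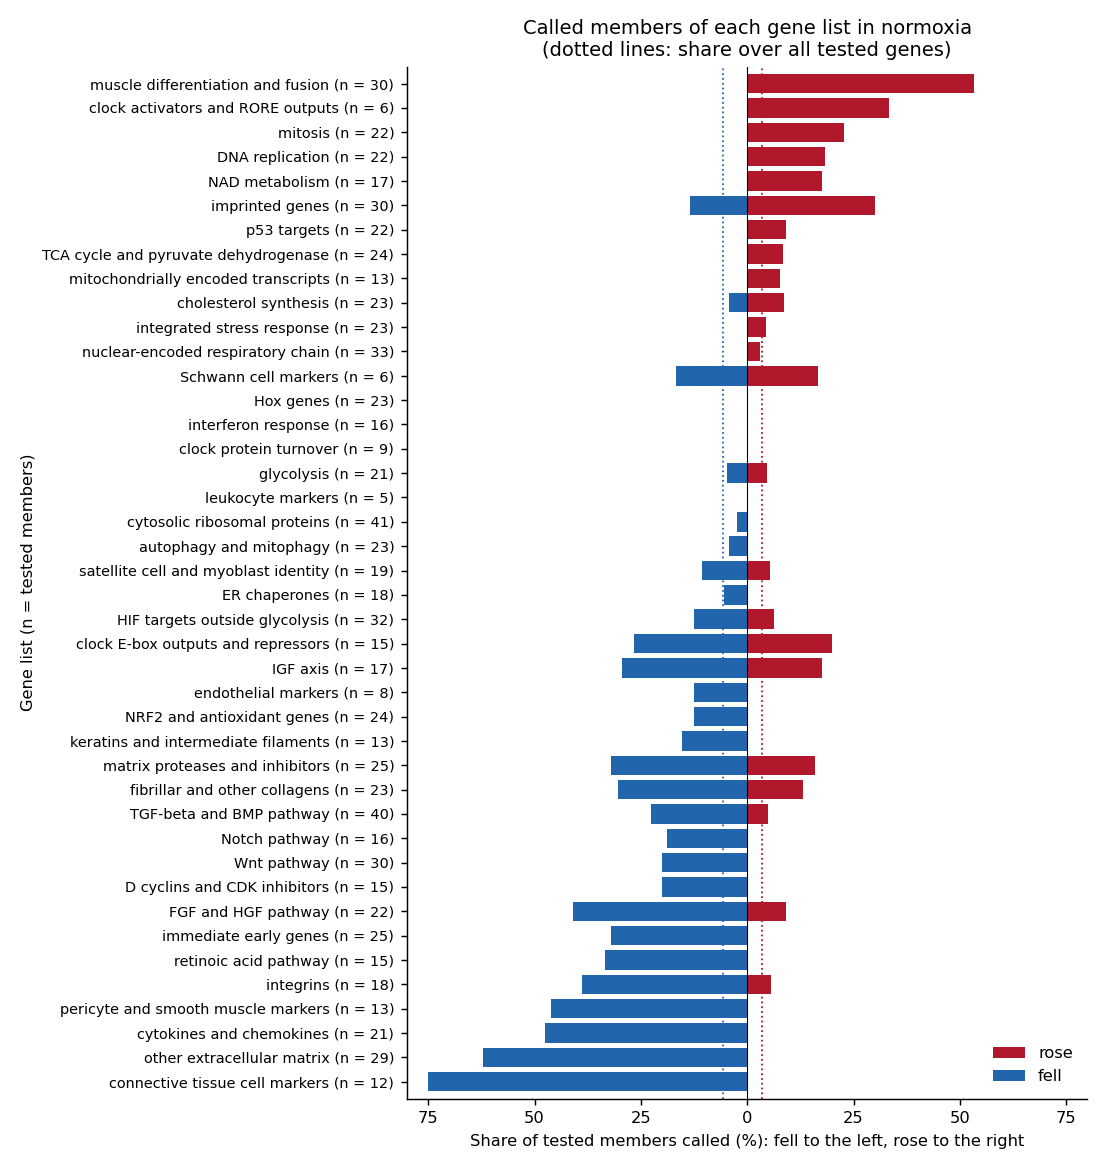
Share of the tested members of each list that rose (red, to the right) or fell (blue, to the left) in the knockout in normoxia, in percent, for lists with at least 5 tested members. Dotted lines mark 3.44% risen and 5.66% fallen over all tested genes. The longest bar to the right is muscle differentiation at the top (16 of 30 rose). The longest to the left is connective tissue markers at the bottom (9 of 12 fell), followed by matrix genes outside the collagens (18 of 29 fell).

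Ribosomal protein genes did not move as a list, with 1 faller among 41, which was Rps13. The pseudogene Rps13-ps1, a processed copy of that faller, was among the calls with the smallest p-values. Rps13 was read at 7194 and 7036 in the wild-type libraries and 5432, 5101 and 4768 in the knockout libraries, a log2 difference of -0.48 ± 0.05 (SE; adjusted p = 4.40e-05). Its pseudogene Rps13-ps1 was read at 65.3 and 74.2 in the wild-type libraries and 3001, 3349 and 2975 in the knockout libraries, a log2 difference of 5.46 ± 0.15 (SE; adjusted p = 1.47e-10). Rps13-ps2 was read at 156 and 131 in wild-type and was at 0 in all 3 knockout libraries, at least 121-fold lower when the knockout group is set to a floor of 3 reads. Processed pseudogenes are copies of the parent transcript, so how the reads were divided among them is uncertain.

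Summed over the 3 family members, the Rps13 counts were 7416 and 7242 in wild-type and 8433, 8450.3 and 7744 in the knockout, a smaller and opposite shift to that of Rps13 itself. The Rps15a family also held called copies. Rps15a-ps7 was read at 128 and 139 in the wild-type libraries and 1439.7, 1404 and 1336 in the knockout libraries, a log2 difference of 3.37 ± 0.16 (SE; adjusted p = 1.86e-08). Rps15a-ps8 had 1 read in wild-type and 485 in the knockout, a ratio of 347 with a 95% counting interval of 62.0 to 13745 that covers counting error only. The parent gene Rps15a was read at 8974 and 8693 in wild-type against 9423, 9064 and 8336 in the knockout and did not pass (0.02). Summed over 6 members the family was at 9206 and 8939 in wild-type and 11624, 11289 and 10421 in the knockout.

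Several of these genes lie near the targeted locus on chromosome 7. Rps13 starts 3.12 Mb and Plekha7 2.92 Mb from the start of Arntl. Within 5 Mb of Arntl, and without Arntl itself, 7 of 55 tested genes were called (12.7%, 3 risen and 4 fallen). The share was 12.3% of 65 genes at 5 to 10 Mb, 12.5% of 152 at 10 to 15 Mb, 8% of 50 at 15 to 20 Mb, 11.1% of 45 at 20 to 25 Mb, 12.9% of 93 at 25 to 30 Mb and 7.48% of 615 at 30 Mb or more. Chromosome 7 without Arntl had 9.40% of 1075 genes called, and other chromosomes had 9.06%. Below 30 Mb every window except that at 15 to 20 Mb lay above 9.06%, and the share at 30 Mb or more lay below it. Itpripl2, 5.28 Mb away, was read at 3217 and 3041 in the wild-type libraries and 1342, 1358 and 1319 in the knockout libraries, a log2 difference of -1.22 ± 0.05 (SE; adjusted p = 3.15e-09), one of the smallest p-values of the comparison. Mical2, which encodes an actin-oxidising enzyme, lies 0.98 Mb away and fell (-0.57), and Galnt18, a glycosyltransferase gene 1.74 Mb away, rose (0.90). Whether sequence around the deleted allele differs between the genotypes was not tested.

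The main fit took a single spread per gene from all 11 libraries, so its normoxia and hypoxia calls were not separate tests. The genotype difference was read again in the 6 hypoxia libraries, none of which is a normoxia library. There 491 genes rose (3.33% of those tested) and 827 fell (5.61%), 8.95% together. Of the genes that rose in normoxia 247 also rose in hypoxia, which is 48.8% of the normoxia and 50.3% of the hypoxia risers. Of those that fell 571 also fell, 68.5% and 69.0% of the lists. A single gene that rose in normoxia fell in hypoxia and 1 did the reverse. Fitted separately in each oxygen level, the shared genes numbered 198 risen and 455 fallen. They made up 60% and 77.4% of the normoxia lists of those fits and 43.2% and 55.9% of the hypoxia lists. Signs were the same in hypoxia for 96.0% of the risen and 97.5% of the fallen genes.

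Log2 differences at 1% oxygen are set beside those in normoxia for the leading genes. Arntl differed by -1.31, Nr1d2 by -3.14, Nr1d1 by -2.25, Cry1 by 1.74 and Per3 by -1.17, against -1.29, -3.19, -2.66, 1.58 and -1.63 in normoxia. Nr1d2 in hypoxia was read at 1145, 1172 and 1075 in wild-type and 113, 142 and 128 in the knockout. Among other genes, Aldh1a2 differed by -2.52, Hgf by -2.40, Ccn2 by -1.61, Cxcl14 by -2.67 and Myh3 by 0.71. In the gene lists, 18 of 30 differentiation genes rose, 16 of 29 matrix genes outside the collagens fell, and 9 of 12 connective tissue markers fell in hypoxia. The difference between the genotype effects at the oxygen levels passed for 1 gene with limma (0.00679% of tested, 784 at an unadjusted p under 0.05), for 0 with edgeR (777 unadjusted) and for 2 with DESeq2 (543 unadjusted).

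**Figure D5:**
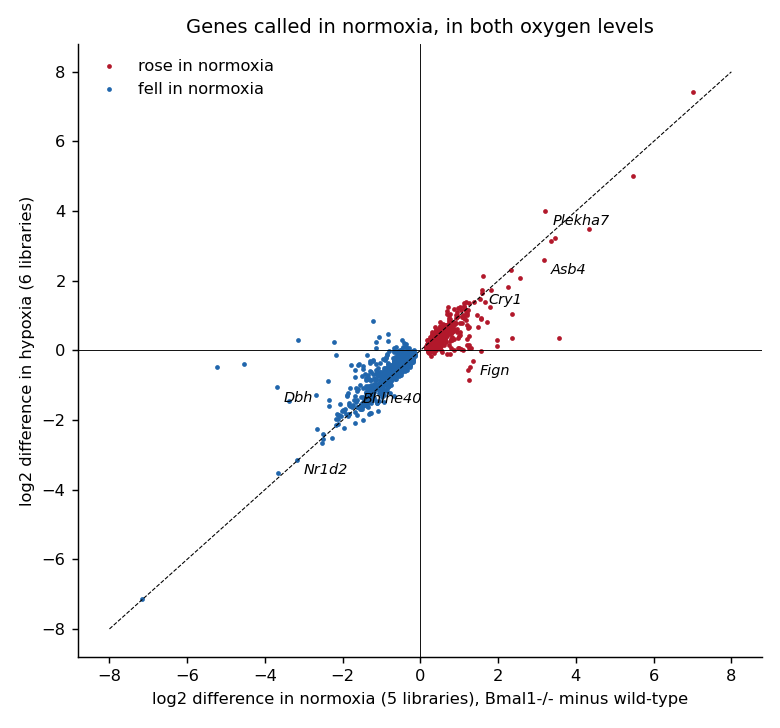
Log2 difference of knockout minus wild-type in the 6 hypoxia libraries (vertical axis) against that in the 5 normoxia libraries (horizontal axis) for the genes called in normoxia, red where risen and blue where fallen, with a dashed line of equal differences. Nr1d2, Cry1 and Plekha7 lie near the line or beyond it in hypoxia, and most points share their sign at both oxygen levels.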

How the data were processed

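RNA of the 5 normoxia and 6 hypoxia libraries was sequenced from stranded total RNA libraries, per the labels' protocols. Tools named in the submitters' processing notes are STAR, HTSeq, RSEM, DESeq2, Picard and bcl2fastq, with mm10 as the build and no versions or roles. The authors deposited signal values: each library's reads per gene over a size factor of that library. Undoing the division returned a whole number within 0.01 for 100% of values, and 0 columns were left unused. Gene symbols were found for 21805 of 22104 identifiers. The counting strand setting is not given in the sources used here, so reads of overlapping genes may not be told apart.

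Values were log2-transformed with a pseudocount of 1, which understates changes of low genes. A model of 4 groups over all 11 libraries was fitted with limma 3.58.1 (R 4.3.3), with a variance trend, 7 residual degrees of freedom and two-sided tests. P-values were Benjamini-Hochberg adjusted over 14729 genes. Recovered read counts were tested with edgeR 4.0.16 and DESeq2 1.42.0 as alternatives. The other alternatives were the pseudocount, the filter, the variance trend, the scaling, the normoxia libraries alone and leaving out each library. The fit was tested on simulated data. Within groups, pairs of libraries differed by a chi-square of 4.33 to 10.1 per degree of freedom, above sampling noise, so none was counted as a duplicate.

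The 44 gene lists and the rule for named genes were chosen with earlier results of these data known. The rule took clock and myoblast genes fixed by name, up to 15 risen and 15 fallen genes of largest difference with a mean of at least 50 and no overlap, up to 4 called members per list, up to 5 genes that differed between oxygen levels and up to 5 risen and 5 fallen genes of smallest p. For a list with none called it took up to 2 members with the highest mean. It gave 162 genes. A further 99 list members and chromosome 7 or ribosomal genes were added after their values were seen, as were the motifs CACGTT and TTANGTAA. Promoters came from the RefSeq table of GRCm38.p6, which holds 20 of the 24 clock genes looked for, and gene positions from GENCODE M21. Some list members are counted but not reported here by name.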

Additional observations from a re-analysis of the deposited data

Results flagged for a closer look

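The genotype difference of 1 gene itself differed between the oxygen levels by the interaction test of limma. Gm23925 (ENSMUSG00000064405), a small nucleolar RNA gene model, was read at 37.5 and 35.4 in wild-type and at 0 in all 3 knockout libraries in normoxia, at least 30.7-fold lower with the knockout group at a floor of 3 reads. In hypoxia it was read at 44.8, 34.4 and 26.4 in wild-type and 31, 28.2 and 16.4 in the knockout. The log2 difference in normoxia minus that in hypoxia was -4.74 (adjusted p = 0.00368). Another identifier carries the same symbol, and the way reads were divided between small RNA copies is not given in the sources used here.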

How the results depend on the processing

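The number of risen genes was 331 in a fit of the normoxia libraries alone and 319 without a variance trend, against 506. Leaving out 1 library at a time gave 229 to 496 risen and 439 to 835 fallen genes, lowest without wild-type replicate 2. Other settings, among them edgeR (433 risen and 811 fallen) and DESeq2 (467 and 756), stayed within 1.5 times of 506 and 833. Of the 261 named genes 238 were called. Among those 238, 77 lost their call without wild-type replicate 1 and 62 without wild-type replicate 2, against 10 with edgeR and 24 with DESeq2. Signs turned for genes near 0 that did not pass, over the fits without 1 library: Bhlhe41 (-0.10 to 0.10, positive at 0.06 without wild-type replicate 2), Rora (-0.28 to 0.14, and 0.01 without knockout replicate 3), Hoxa9 (-0.0225 without wild-type replicate 2, to 0.43), Ddx3y (-0.0932 to 0.0062 without knockout replicate 3), Rps15a (-0.0230 without knockout replicate 1 and -0.0072 without wild-type replicate 2, to 0.0653) and Rps15a-ps5 (-0.15 without knockout replicate 2, to 0.37). The cause of these changes was not tested. No paired analysis was possible because the labels give no replicate numbers shared between the groups. TMM and total-read scaling moved the median difference of all genes by -0.0072 and -0.0064. With 2 wild-type libraries, small differences rest on few values, and genes below the filter were not tested.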

Other observations

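The Y-linked genes Ddx3y, Kdm5d, Eif2s3y and Uty were read in all 5 normoxia libraries, at 701 to 1843 normalized counts, and none of the 4 passed the test between the genotypes. Xist was below the filter, at 0 to 6.25.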
